A study of Gossypium hirsutum with 6 samples.

Results

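Leaves of 2 upland cotton (Gossypium hirsutum) genotypes were compared after 8 h at 45 °C: Nan Dan Ba Di Da Hua, which the labels call heat tolerant, and Earlistaple 7, which they call heat sensitive. The comparison uses 2 of the 6 libraries of the series, 1 for each genotype, and covers the 16316 of 421554 transcripts (3.87%) that reached 10 RPKM or more in either of them. RPKM is the read count scaled to transcript length and library size. The difference between the genotypes is given as the log2 ratio of (RPKM + 1), tolerant over sensitive, on which 1 is a 2-fold and 3 an 8-fold difference. All seedlings were about 20 days old, carried 3 leaves and were raised on Hoagland's solution with days at 28 °C and nights at 22 °C. Heat began about 6 h into a light period of 14 h, so leaves heated for 8 h were taken at about the end of the light by these times. The other 4 libraries are the unheated control (28 °C) and the 4 h heat library of each genotype, and the labels do not give the hour at which the control was taken. The labels do not give the number of plants behind a library. Each group held 1 library, so no test was made and the sizes describe these libraries, not the spread between plants.

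Leaves that meet high temperature are known to make chaperones of the heat-shock protein families, under the control of heat-shock transcription factors, while transcripts for photosynthesis and growth often become scarcer. Upland cotton is an allotetraploid, so many of its genes are present as near-identical copies from the A and D subgenomes. The transcripts here carry identifiers of the form given by a de novo assembly, and no file names the gene behind one. None was found (0 matches) among the 99454 genes of the RefSeq table for upland cotton. No gene, function, leaf marker or sequence can therefore be given for a transcript. Transcripts assembled together form a component, and the 16316 transcripts belonged to 9518 components, of which 4744 held a single transcript.

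The tolerant 8 h library stood apart from the other 5. For each pair of libraries the transcripts at 10 RPKM or more in either were compared. Those at least 2-fold apart made up 50.1% between the genotypes at 8 h, with an interquartile range of 2.05 for the log2 ratio across transcripts. The tolerant 8 h library was also 47.0% apart from the 4 h library of its own genotype and 58.5% apart from the sensitive 4 h library. From the tolerant and sensitive controls it was 74.6% and 76.9% apart. The controls in turn were 45.8% to 54.6% apart from the remaining heated libraries and 14.8% from each other, all in RPKM as deposited. In contrast, the sensitive 8 h library was 18.3% apart from the tolerant 4 h library and 14.2% from its own 4 h library, with interquartile ranges of 0.94 and 0.77. The genotype difference at 8 h therefore involves a library that no second one of its kind backs, and cannot be recomputed without it. Relative read depth, recovered from the spacing of low values, was 0.914 in the tolerant against 1 in the sensitive 8 h library. The absolute number of reads is unknown, so no counting interval is given.

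Of the 16316 transcripts, 6949 were at 10 RPKM or more in both libraries, 4009 in the tolerant alone and 5358 in the sensitive alone. The log2 ratio had a median of -0.04 and quartiles of -1.17 and 0.87, and ran from -6.46 to 5.33. At least 2-fold higher in tolerant leaves were 3427 transcripts (21.0% of those compared), and at least 2-fold higher in sensitive leaves were 4748 (29.1%). The lean towards the sensitive genotype was larger among big differences. At least 8-fold apart were 149 transcripts (0.913%) higher in tolerant and 517 (3.17%) in sensitive leaves. Over components, read from the most abundant transcript of each, 1779 were at least 2-fold higher in tolerant and 3004 in sensitive leaves, and 93 and 353 at least 8-fold.

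**Figure D1:**
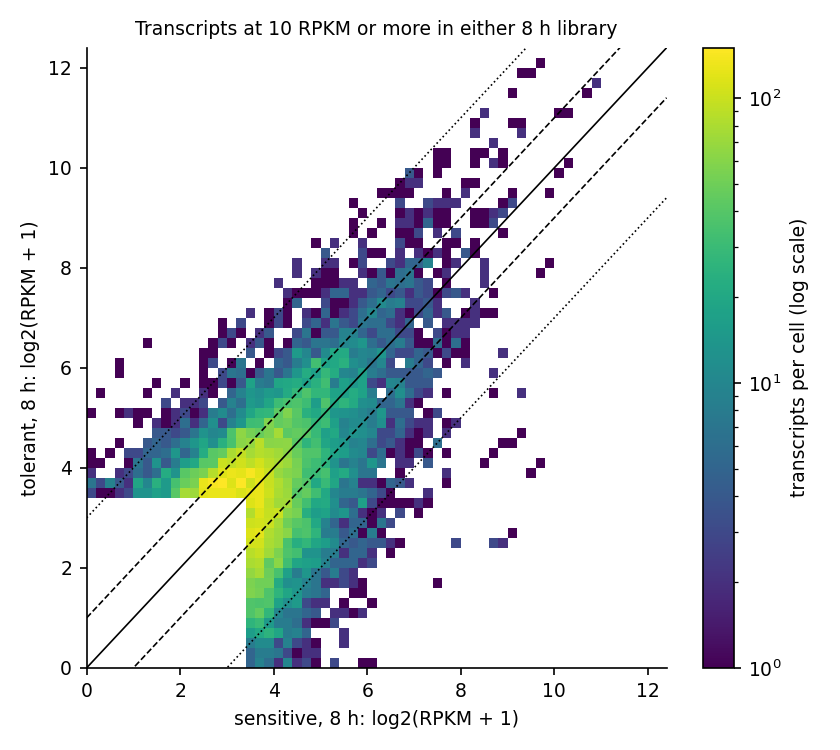
Level in the tolerant (vertical) against the sensitive (horizontal) 8 h library, both as log2(RPKM + 1), for the 16316 transcripts. The colour gives the number of transcripts per cell, and the solid, dashed and dotted lines mark equal levels, 2-fold and 8-fold differences. More transcripts lie beyond the lower dotted line (517) than beyond the upper one (149), and the empty square at the lower left is the filter of 10 RPKM.

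Which genotype held more of the higher transcripts depended on the scaling between libraries. As deposited, 41.9% of the 2-fold differences were higher in tolerant leaves. Scaling by the median of ratios moved the log2 RPKM ratio by 0.65 and this share to 69.6%, with 6452 transcripts higher in tolerant and 2815 in sensitive leaves. Scaling by the upper quartile moved the ratio by 0.32 and gave 4969 and 3711, a share of 57.2%. The 8-fold counts turned as well, to 386 and 215 under the median of ratios, while under the upper quartile they were 247 and 338. A difference of 2-fold was reached in each of the 3 scalings by 3427 transcripts towards tolerant and 2815 towards sensitive leaves, and one of 8-fold by 149 and 215. Both rescalings move every ratio towards tolerant leaves, so none of the 3427 and 149 could be lost by them.

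The transcripts just inside the limit of 10 RPKM resembled those just outside it. The 1776 transcripts whose higher value lay from 10 to under 11 RPKM had a median log2 ratio of -0.17, and the 2069 from 9 to under 10 RPKM one of -0.15.

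The difference between the genotypes changed with the level of the transcript. Classed by the mean RPKM of the 8 h libraries, the 118 transcripts at 300 RPKM or more that were above 0 in both had a median log2 RPKM ratio of 1.47, and the 445 from 100 to 300 RPKM one of 0.70. The median was 0.20 for the 2197 transcripts from 30 to 100 RPKM and 0.01 for the 8753 from 10 to 30 RPKM. At lower means it was negative, at -0.13 for 34530 transcripts from 3 to 10 RPKM, of which 4781 reached 10 RPKM in a library and so belong to the comparison. It was -0.62 for 201626 from 0.1 to 1 RPKM, none of which did. The median of ratios draws on all 310848 transcripts above 0 in every library, most of which are of low level. In the class at 300 RPKM or more, 76 transcripts were at least 2-fold higher in tolerant and 8 in sensitive leaves, whereas from 10 to 30 RPKM the numbers were 1533 and 2081. A common scaling factor moves all classes by the same amount, so the order of these medians is the same under each scaling.

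**Figure D2:**
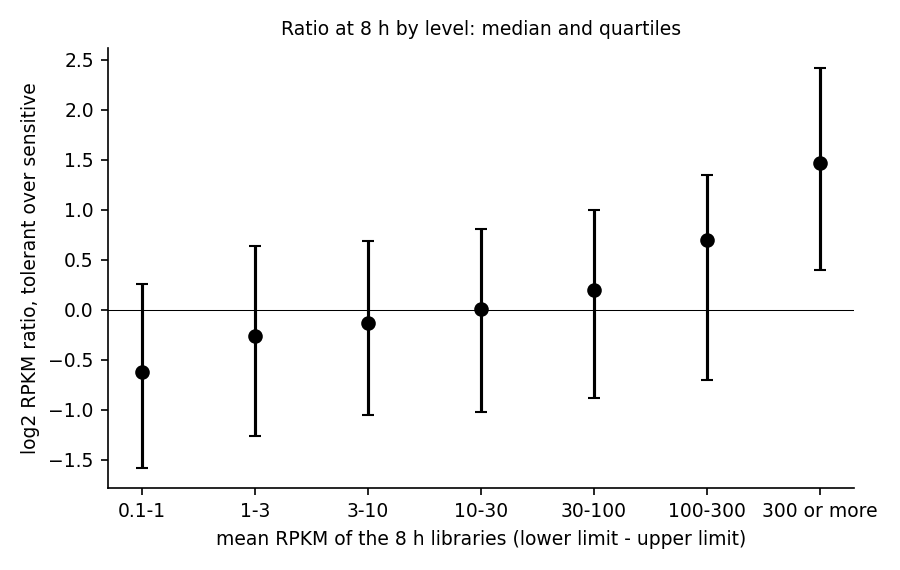
Median (points) and quartiles (bars) of the log2 RPKM ratio, tolerant over sensitive, at 8 h, by the mean RPKM of the 8 h libraries, for transcripts above 0 in both. The median goes from -0.62 at 0.1 to 1 RPKM to 1.47 at 300 RPKM or more.

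The most abundant transcripts of the libraries overlapped in part. At 100 RPKM or more were 599 transcripts of the tolerant and 518 of the sensitive library, of which 285 were shared, 47.6% of the tolerant and 55.0% of the sensitive list. The 314 in the tolerant list alone had medians of 16.0, 40.4 and 148 RPKM in tolerant leaves (control, 4 h, 8 h) and 7.28, 28.1 and 55.4 RPKM in sensitive leaves. The 233 in the sensitive list alone had medians of 99.0, 99.5 and 47.0 RPKM in tolerant and 52.8, 152 and 138 RPKM in sensitive leaves. The control medians of the second list were thus above those of the first in both genotypes. Over all 16316 transcripts the control medians were 9.54 RPKM in tolerant and 8.08 RPKM in sensitive leaves.

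The share of all RPKM was also taken for the 2-fold lists. These were picked on the 8 h libraries, so the direction of their gap at 8 h was fixed by the choice. The 3427 transcripts at least 2-fold higher in tolerant leaves held 26.1% of the RPKM of the tolerant 8 h library and 7.17% of the sensitive one. In the controls they held 3.61% and 2.72%, and at 4 h 9.05% and 5.87%. The 4748 higher in sensitive leaves held 17.5% of the sensitive and 4.39% of the tolerant 8 h library. In the controls these 4748 held 27.9% of the RPKM of tolerant and 26.5% of that of sensitive leaves.

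The 10 components with the highest ratios held from 1 to 15 transcripts. Only the transcript from which each was read, the most abundant at 8 h, is described here. Of these 10 transcripts all were listed at 0 in the tolerant control and 9 in the sensitive control. Their 8 h values ran from 14.53 to 90.21 RPKM in the tolerant library, with a median of 33.3, and from 0 to 1.98 RPKM in sensitive leaves. They were picked by these values, so the gap at 8 h was fixed by the choice. At 4 h they stood at no more than 2.85 RPKM in tolerant and 0.53 RPKM in sensitive leaves. Their log2 ratios lay between 3.96 and 5.33. comp44417_c0_seq1, which led them, was listed at 0 in both controls and in the sensitive 4 h library. It measured 1.78 RPKM in the tolerant 4 h, 65.7 in the tolerant 8 h and 0.66 in the sensitive 8 h library, 99.6-fold apart at 8 h as a plain ratio. comp103002_c0_seq1 followed it at a nearly constant proportion, with a ratio of the former to the latter of 1.06 to 1.07 in the 3 libraries where both were above 0. It was listed at 0 in the same libraries and measured 1.67, 61.3 and 0.62 RPKM in the others. These transcripts were seen at above 3 RPKM in the tolerant 8 h library and in no other of the 6.

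Of the 10 components with the lowest ratios, also read from 1 transcript each, 6 were at 1 RPKM or more in the tolerant control. Their 8 h values ran from 0 to 16.35 RPKM in tolerant and from 36.4 to 843 RPKM in sensitive leaves, a gap again set by the choice, and their log2 ratios from -6.46 to -5.03. comp102453_c0_seq1 had the lowest ratio. It measured 548, 192 and 4.52 RPKM in tolerant leaves (control, 4 h, 8 h), against 303, 403 and 485 RPKM in sensitive leaves. It was thus lower with each time in tolerant and higher with each in sensitive leaves, 107-fold apart at 8 h as a plain ratio. comp98734_c0_seq1 gave 613, 219 and 5.78 RPKM in tolerant and 327, 451 and 557 RPKM in sensitive leaves, a course close to that of the first. Without heat both were higher in tolerant leaves, by a log2 ratio of 0.85 and 0.90.

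Other courses occurred among these 10. A pair of transcripts, from components of 4 and 3 transcripts, was listed at 0 in all 3 tolerant libraries. It measured 69.2 and 61.9 RPKM in sensitive leaves at 8 h. In the sensitive control the pair stood at 101 and 90.0 RPKM, so this difference was present without heat. Another pair was below 1 RPKM in both controls. It went to 29.8 and 34.9 RPKM at 4 h and 13.9 and 16.4 RPKM at 8 h in tolerant leaves, against 81.8 and 94.6 and then 728 and 843 RPKM in sensitive leaves. A pair at 63.2 and 65.4 RPKM in the tolerant control was at 4.59 and 4.79 RPKM there at 8 h, against 234 and 237 RPKM in sensitive leaves.

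Components at least 2-fold higher in tolerant leaves were also ranked by level in the tolerant 8 h library, with 1 transcript for each. The 10 most abundant measured 1382 to 4387 RPKM in it and 376 to 786 RPKM in the sensitive one. Their log2 ratios lay between 1.45 and 2.56. In the controls all 10 were higher in tolerant leaves, 4 of them at least 2-fold, although in the tolerant control they stood at a median of 5.92 RPKM. At 4 h 8 of the 10 were at least 2-fold apart. A pair among them was abundant without heat, at 392 and 386 RPKM in unheated tolerant and 271 and 268 RPKM in unheated sensitive leaves. At 4 h this pair was lower in tolerant leaves, with 376 and 370 against 620 and 610 RPKM, and at 8 h higher, with 1781 and 1758 against 651 and 642 RPKM. It is the one pair of the 10 whose order between the genotypes changed from 4 h to 8 h.

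The 10 most abundant in the sensitive 8 h library among those at least 2-fold higher there were likewise each from a different component. They measured 493 to 982 RPKM in it and 5.78 to 265 RPKM in the tolerant one. In the controls all 10 were higher in tolerant leaves, 8 of them by less than 2-fold, and the median was 461 RPKM for tolerant and 249 RPKM for sensitive leaves. The first of them went from 1818 to 625 and 265 RPKM in tolerant and from 1737 to 1261 and 982 RPKM in sensitive leaves. It was lower at each later time in both genotypes, and 3.70-fold apart at 8 h. Another went from 77.2 to 88.7 and 47.5 RPKM in tolerant but from 25.7 to 328 and 667 RPKM in sensitive leaves, 14.0-fold apart at 8 h.

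The 3 most abundant transcripts of the tolerant 8 h library, with log2 ratios of 2.47 to 2.48, were not among the 5 highest of the sensitive one. A transcript among the 5 highest of both measured 3430 RPKM in tolerant and 1975 RPKM in sensitive leaves, a log2 ratio of 0.80, after 5259 and 5714 RPKM at 4 h. The fifth of the sensitive library measured 1050 RPKM in tolerant and 1196 RPKM in sensitive leaves. In the controls it stood at 2103 and 1571 RPKM and at 4 h at 711 and 757 RPKM, so it was lower at 4 h than at 8 h in both.

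Few of the compared transcripts were listed at 0 in one of the 8 h libraries. Over all 421554 transcripts of the series, 351941 were above 0 in both. Listed at 0 in the tolerant 8 h library were 17 of the 16316 transcripts and in the sensitive one 5. The 5 at 0 in the sensitive library measured 12.8 to 16.0 RPKM in the tolerant one. A pair of them was at 5.37 and 5.25 RPKM in the tolerant control against 0.04 and 0.03 RPKM in the sensitive control. Of the 17 at 0 in the tolerant library, the 5 highest in the sensitive one measured 20.6 to 69.2 RPKM there, and 3 of these 5 were at 0 in all tolerant libraries.

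The spread of the genotype ratio was widest at 8 h. Under the same limit of 10 RPKM in either library, 13216 transcripts were compared without heat and 14403 at 4 h. The quartiles of the log2 ratio were -0.30 and 0.34 in the controls and -0.48 and 0.39 at 4 h, against -1.17 and 0.87 at 8 h. In the controls 12.6% of transcripts were at least 2-fold higher in tolerant and 2.19% in sensitive leaves, and at 4 h 5.83% and 9.30%. Past 8-fold at 4 h were 17 transcripts in each direction. The controls held 437 such transcripts higher in tolerant and 25 in sensitive leaves, so the larger tail of the controls was on the other side from that at 8 h as deposited. Under the median of ratios the 8 h counts were 386 and 215. No count under that scaling is given for the controls, so the sides cannot be compared there.

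**Figure D3:**
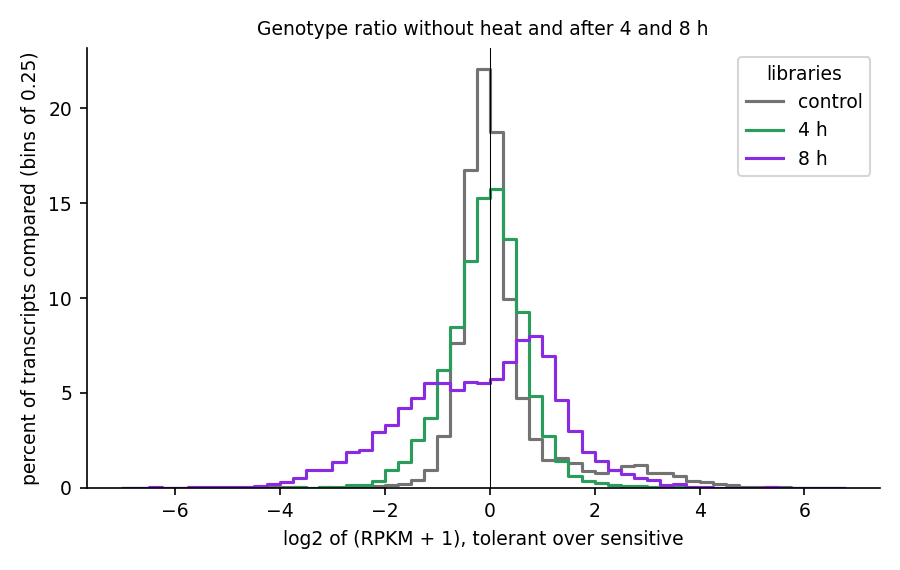
Distribution of the log2 ratio of (RPKM + 1), tolerant over sensitive (horizontal), as the percent of transcripts in bins of 0.25 (vertical), for transcripts that reached 10 RPKM in one or both libraries of that time. The 8 h curve is the widest, with quartiles at -1.17 and 0.87.

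The genotype ratio at 8 h was related to that at 4 h but hardly to that without heat. Across the 16316 transcripts Pearson's r was 0.582 (Spearman's rho 0.575) with the ratio at 4 h and -0.0244 (0.018) with the ratio of the controls. No library is common to these ratios, transcripts are not independent replicates, and each ratio carries the depth and scaling of its own pair of libraries. Of the 3427 transcripts at least 2-fold higher in tolerant leaves at 8 h, 728 (21.2%) were so at 4 h and 408 (11.9%) in the controls. Of all transcripts compared at those times 5.83% and 12.6% were so. These backgrounds are unlike the 8 h lists, since they needed 10 RPKM at that time and the lists needed it at 8 h alone. The 3427 had control medians of 2.23 RPKM in tolerant and 1.75 RPKM in sensitive leaves. Of the 4748 higher in sensitive leaves, 815 (17.2%) were so at 4 h against a background of 9.30%, and 69 (1.45%) in the controls against 2.19%. In the controls 815 of the 4748 (17.2%) were instead at least 2-fold higher in tolerant leaves, against a background of 12.6%. Both genotypes were within 2-fold of each other in the controls and at 4 h for 2390 (69.7%) of the 3427 and 3354 (70.6%) of the 4748 transcripts. The same share over all 16316 transcripts is not given here, so nothing is read from these values. Of the transcripts compared in the controls 14.8%, and of those compared at 4 h 15.1%, were at least 2-fold apart.

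The 8-fold differences were more often visible at 4 h. Of the 149 transcripts higher in tolerant leaves, 102 (68.5%) were at least 2-fold higher there at 4 h and 39 (26.2%) in the controls. Of all transcripts compared at those times 5.83% and 12.6% were so. Of the 517 higher in sensitive leaves, 193 (37.3%) were at least 2-fold higher there at 4 h and 37 (7.16%) in the controls, against 9.30% and 2.19% of all. In the controls 88 (17.0%) of the 517 were at least 2-fold higher in tolerant leaves, not far from the 12.6% of all. At all 3 times the difference was at least 2-fold in the same direction for 35 and 29 transcripts, for which no share over all transcripts is given. None of the 149 or the 517 was 2-fold apart in the opposite direction at 4 h, where 9.30% and 5.83% of all were.

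The course from control to 8 h differed between these lists. The 149 transcripts had medians of 0.59, 5.71 and 32.2 RPKM in tolerant leaves (control, 4 h, 8 h) and of 0.13, 0.38 and 2.08 RPKM in sensitive leaves. They were thus low without heat in both and higher at each time, mainly in tolerant leaves. The 517 transcripts had medians of 20.1, 9.75 and 1.19 RPKM in tolerant leaves and 17.1, 19.5 and 24.7 RPKM in sensitive leaves. The medians were thus alike in the controls and changed little in sensitive leaves. Single transcripts went both ways there, with 37.1% at least 2-fold higher and 18.6% lower at 8 h than in the control. Over all 16316 transcripts these shares were 42.2% and 7.53%. For the 215 that were 8-fold apart under all 3 scalings the medians were 17.2, 8.69 and 0.65 RPKM against 16.1, 19.2 and 25.3 RPKM. The lists were chosen on the 8 h libraries, so their 8 h medians had to differ and no support is drawn from them.

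**Figure D4:**
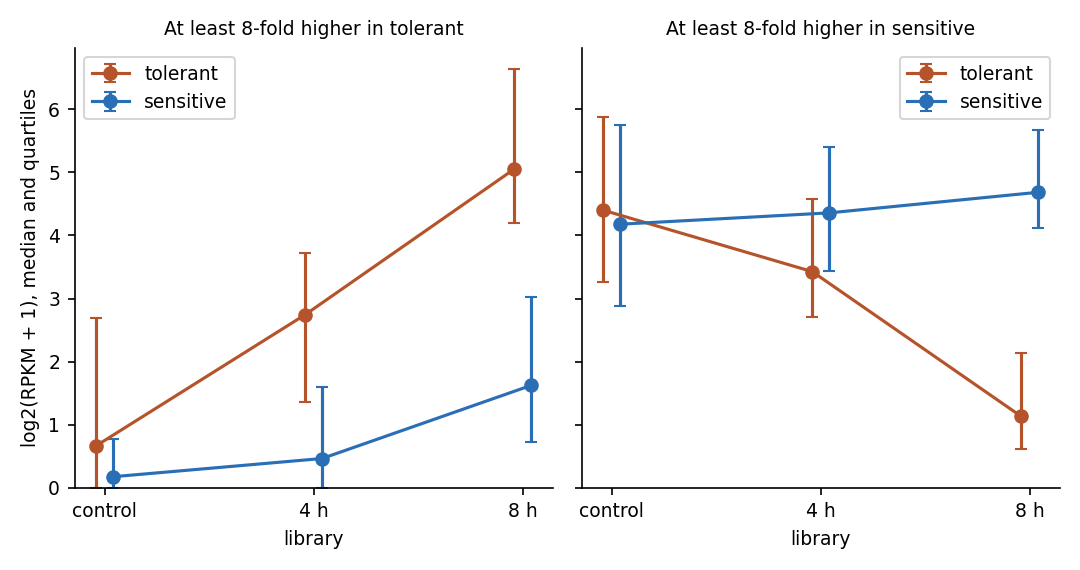
Median and quartiles of log2(RPKM + 1) in the control, 4 h and 8 h libraries of each genotype, for the 8-fold lists at 8 h, 149 transcripts on the tolerant side (left) and 517 on the sensitive side (right). In the left panel the tolerant library goes to a median of 32.2 RPKM, and in the right panel it goes to 1.19 RPKM while the sensitive libraries stay between 17.1 and 24.7 RPKM.

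Most large differences at 8 h went with a change between 4 h and 8 h in tolerant leaves. Transcripts below 1 RPKM in all 3 libraries of the lower genotype were set apart first, whatever their change, and are not in the other counts. Of the 517 transcripts higher in sensitive leaves, 385 (74.5%) were at least 2-fold lower at 8 h than at 4 h in tolerant leaves without being 2-fold higher in sensitive ones. A further 63 (12.2%) showed both, and 44 (8.51%) were 2-fold higher in sensitive leaves alone. Below 1 RPKM in all 3 tolerant libraries were 19 (3.68%). The 385 stood at medians of 27.4, 11.7 and 1.26 RPKM in tolerant leaves and 22.9, 23.3 and 24.7 RPKM in sensitive leaves. The 63 went to a median of 37.1 RPKM in sensitive leaves at 8 h from 14.3 RPKM at 4 h, and to 2.18 from 14.9 RPKM in tolerant leaves. Under the scalings the 385 of 517 became 146 of 215 (67.9%, median of ratios) and 262 of 338 (77.5%, upper quartile).

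Of the 149 transcripts higher in tolerant leaves, 133 (89.3%) were at least 2-fold higher at 8 h than at 4 h there. Set apart, whatever their change, were 43 (28.9%) below 1 RPKM in all 3 sensitive libraries. Outside these 43, 103 (69.1% of the 149) were 2-fold higher in tolerant leaves without being 2-fold lower in sensitive ones. These 43 transcripts of 33 components had medians of 0, 1.77 and 12.6 RPKM in tolerant leaves. In the sensitive genotype 1 of the 149 was at least 2-fold lower at 8 h than at 4 h. The 103 became 324 of 386 (83.9%) under the median of ratios and 194 of 247 (78.5%) under the upper quartile.

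The 2-fold lists were alike in this, with transcripts below 1 RPKM in all libraries of the lower genotype again set apart first. Of the 3427 transcripts higher in tolerant leaves, 2526 (73.7%) were 2-fold higher at 8 h than at 4 h there alone and 790 (23.1%) showed no such change in either genotype. Of the 4748 higher in sensitive leaves, 3093 (65.1%) were 2-fold lower in tolerant leaves alone and 1206 (25.4%) showed no such change. Under the median of ratios the last 2 values were 1459 (51.8%) and 1133 (40.2%) of 2815. In tolerant leaves 22.5% of all 16316 transcripts stood 2-fold or more above their 4 h level at 8 h and 23.4% below it, against 12.9% and 2.58% in sensitive leaves. The lists share the 8 h libraries with these changes, which are therefore given as a description.

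**Figure D5:**
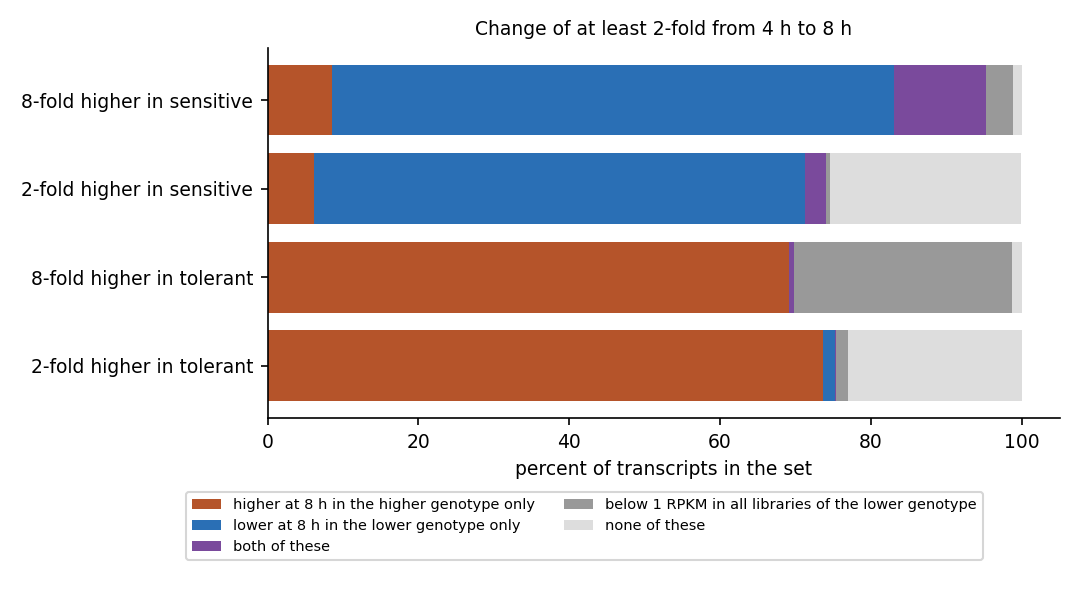
Percent of the transcripts in each list (horizontal) by their change of at least 2-fold from 4 h to 8 h in the genotype where they were higher or lower at 8 h, RPKM as deposited. Transcripts below 1 RPKM in all libraries of the lower genotype form a class of their own, whatever their change. Of the transcripts 8-fold higher in sensitive leaves, 74.5% were lower at 8 h than at 4 h in tolerant leaves alone. Of those 8-fold higher in tolerant leaves, 69.1% lay outside that class and were higher at 8 h there alone.

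Against the control, the transcripts higher in tolerant leaves at 8 h were mostly higher after 8 h of heat in both genotypes. The 3427 had a median log2 ratio of 8 h to control of 2.74 in tolerant and 1.40 in sensitive leaves, and 92.1% and 64.9% of them were at least 2-fold higher. Over all 16316 transcripts these shares were 41.3% and 42.2%. The 4748 had a median of -1.62 in tolerant and 0.31 in sensitive leaves. In the tolerant genotype 68.0% of these were at least 2-fold lower than the control, against 24.5% of all compared. In sensitive leaves 14.3% of the 4748 were lower, against 7.53% of all, and 33.9% higher, against 42.2% of all. The comparisons with the control share the 8 h libraries with the comparison between the genotypes.

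Within a component the transcripts usually stood on the same side. In the 3019 components with 2 or more of the compared transcripts, the median range of the log2 ratio was 0.20. All transcripts were at least 2-fold higher in tolerant leaves in 466 components and in sensitive leaves in 685. The range reached 1 or more in 424 components (14.0%), and 21 components (0.696%) held transcripts at least 2-fold higher in either genotype. In one of the 21 a transcript measured 34.3 RPKM in tolerant and 10.8 RPKM in sensitive leaves at 8 h, while another one from it stood at 2.16 and 20.3 RPKM. In the controls the former was at 0.02 and 0.07 RPKM and the latter at 12.0 and 11.5 RPKM, so the latter alone was above 1 RPKM without heat.

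The highest transcript of a component was not always the same in both genotypes. Where both 8 h libraries held a transcript of the component at 10 RPKM or more, it differed in 376 of 1736 components (21.7%). For transcripts of the same components it differed in 163 of 1411 (11.6%) in the controls and in 297 of 1982 (15.0%) at 4 h. The components counted differ between the times, since the limit of 10 RPKM was applied at each.

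Counts of transcripts exceed the number of separate profiles. Proportional values, within a distance of 0.02 on centred natural logarithms, were shared with a different component by 2787 (23.8%) of the 11730 compared transcripts whose 6 values were all 2 RPKM or more. Merging such partners left 10311 groups and took the 2-fold counts of these transcripts from 1377 and 3409 to 1211 and 2942 and the 8-fold counts from 16 and 168 to 13 and 135, in each case tolerant and then sensitive. The pair described above that was abundant without heat and changed order is of this kind, with a ratio of one to the other of 1.01 to 1.02 in all 6 libraries. Other neighbours in the lists of the 10 most abundant also kept nearly constant ratios. On the tolerant side these were 1.0 to 1.01 (ranks 3 and 4), 1.02 (5 and 6) and 1.02 to 1.03 (9 and 10). On the sensitive side they were 1.11 (ranks 1 and 2), 1.16 to 1.19 (3 and 4) and 1.01 (5 and 6). The remaining neighbours varied more, up to 1.55 (tolerant) and 15.0 (sensitive). Each list of 10 thus holds fewer than 10 separate profiles. How reads were shared between near-identical transcripts is not given in the sources used here, so the level of one member of a pair is uncertain.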

How the data were processed

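RPKM per transcript, with 2 decimals, was used as the authors deposited it, 1 column per library. No assembler, aligner or counter is named in the labels or file headers. Libraries were grouped by the titles and joined on the transcript identifier. Transcripts were kept from 10 RPKM upward in 1 library of a pair, 1 RPKM was added before log2 ratios, and a component was read from its transcript with the highest mean at 8 h. With 1 library per group no test was made. Relative depth came from the spacing of values from 0.3 to 1.5 RPKM, and the 15 pairs of libraries fitted to within 0.0025 (log2). The steps were tested on data with known answers. Identifiers were printed for the 2 highest and 2 lowest ratios over components, and other transcripts were described without one. The transcripts, lists and limits were chosen with earlier results of these data known. Alternatives were 2 pseudocounts, 3 filters, 3 scalings or centrings and sums over components. Python 3.11.15, pandas 2.3.3, numpy 2.4.6 and scipy 1.17.1 were used.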

Additional observations from a re-analysis of the deposited data

Results flagged for a closer look

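Between 4 h and 8 h, 139 of the 16316 transcripts (104 components) were lower by 2-fold or more in tolerant and higher by as much in sensitive leaves, and 7 transcripts the reverse. They are listed because the single libraries of the genotypes moved in opposite directions, and the difference was not tested. These counts turned with the scaling, to 21 and 118 under the median of ratios and 37 and 85 under the upper quartile, settings added for them after the data were examined. The 139 had medians of 6.62, 10.1 and 2.50 RPKM in tolerant leaves (control, 4 h, 8 h) and of 5.12, 6.92 and 18.2 RPKM in sensitive leaves. The 7 had medians of 13.8, 4.94 and 14.4 RPKM against 17.6, 53.3 and 3.09 RPKM.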

How the results depend on the processing

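The log2 ratios of the 20 components with the highest and lowest values were 1.97 or more in size in all 158 values recomputed, and were too large for these settings to turn. A filter does not alter the ratio of a transcript, so the values under the 3 filters repeat the reported ones. Counts of transcripts are given as tolerant and then sensitive. The 2-fold counts (3427 and 4748) were 6245 and 9987 with a filter of 5 RPKM, 1753 and 1973 with 20 RPKM, 17085 and 35776 with no filter, and 6452 and 2815 under median-of-ratios scaling. A pseudocount of 5 RPKM gave 2128 in tolerant leaves. The 8-fold counts (149 and 517) were 260 and 934 with a pseudocount of 0.1 RPKM, 40 and 66 with 5 RPKM, 386 and 215 under median-of-ratios and 247 and 338 under upper-quartile scaling. With a filter of 20 RPKM 319 were 8-fold higher in sensitive leaves. Past the limit in all 3 scalings, a choice made after the data were examined, were 2815 (2-fold) and 215 (8-fold) in sensitive leaves. The median log2 ratio (-0.04) was -0.03 with a pseudocount of 5 RPKM, -0.14, 0.15 and -0.12 with filters of 5 and 20 RPKM and none, 0.58 and 0.26 under median-of-ratios and upper-quartile scaling, and 0.0 when centred. Components (1779 and 3004) numbered 3012 and 5950, 1001 and 1380, and 10908 and 19771 under these filters, and 3448 and 1864 under median-of-ratios scaling. With a pseudocount of 5 RPKM 1152 were higher in tolerant leaves, and sums over components, which brought 20243 components past the filter, gave 2409 (11.9%) and 6249 (30.9%). The cause of the changes with scaling was not tested. No paired analysis was possible because each group held 1 library.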
